A study of Mus musculus with 21 samples.

Results

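The regions described here were 1141 state-stable, MLL3/4-dependent distal regions out of 186826 H3K4me1 regions mapped in mouse embryonic stem cells. They were selected on the measured levels themselves. A member lay in an intron or between genes, more than 1 kb and at most 100 kb from the nearest start site in the authors' annotation, with a mean log2 read concentration of at least 5. Its H3K4me1 level differed by less than 0.5 (log2) between formative and naive cells in wild type and in the floxed control line, and it was at least 1 lower in both MLL3/4 mutants, in both states. Of all regions, 168534 were annotated as intronic or intergenic, 135775 also met the distance limits, 81934 also met the concentration minimum, and 33089 of these were stable between states in both controls. The members were 3.45% of these 33089 state-stable distal regions. With every group first centred on its median over all regions, the same rule gave 271 members.

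H3K4me1, monomethylation of lysine 4 of histone H3, marks enhancers and the flanks of promoters. MLL3 (the product of Kmt2c) and MLL4 (of Kmt2d) are the catalytic subunits of large complexes that place most of this mark at enhancers, and the same complexes carry a demethylase of H3K27 and help to recruit the acetyltransferases that place H3K27ac, the mark of active enhancers. Naive embryonic stem cells correspond to the pre-implantation epiblast and formative cells to the epiblast shortly after implantation, and many enhancers are exchanged between these states, while others keep their mark through the transition.

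CUT&RUN, a method that releases antibody-bound chromatin from permeabilized cells with a tethered nuclease, was used on mouse embryonic stem cells of 4 genotypes in 2 states. The mutants were DKO cells, labelled as knockout for both MLL3 and MLL4, and dCD cells, which carry the alleles labelled CD of both enzymes, known as catalytically dead. Their controls were the floxed line, which is MLL3 knockout with a floxed MLL4 and from which DKO differs by the loss of MLL4, and wild-type cells of line R1, against which dCD was set. The floxed line therefore already lacked MLL3, as DKO did, and for neither of them do the labels give a cell line name. Naive cells were grown with LIF and 2i, and formative cells had gone 63 h without them. Each of the 8 groups had 2 H3K4me1 libraries, which the design text calls independently cultured, but the levels come as 1 pooled column per group, so no spread between libraries can be given and no difference below carries a test. In the authors' deposited table RNA of Kmt2c was lower in DKO than in wild type by a log2 fold of -0.91 in formative and -1.15 in naive cells, and RNA of Kmt2d by -0.84 in formative and -0.72 in naive cells, which does not check alleles that leave part of the transcript. Catalogue numbers of the H3K4me1 antibody disagree between label fields, and the one in the protocol (ab4729) is known as an antibody to H3K27ac. The mark is named here as labelled.

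Over their whole length most members were poor in CpG dinucleotides, and the central 300 bases of single regions are given here as examples, not all of them poor in CG. All were read from the plus strand of the RefSeq sequence of GRCm38, the mm10 build. The first set gives the member with the most negative weakest effect, that is, whose smallest loss among the 4 mutant contrasts was the largest of all members (near Mdfic, chr6:15715978-15716277), the member nearest the members' medians of GC and CG count (near Gm36173, chr10:53150299-53150598) and, for contrast, the region chosen in the same way among distal regions whose mark did not depend on MLL3/4 (near D030025P21Rik, chr12:84858037-84858336). Capitals mark CG.
Mdfic member: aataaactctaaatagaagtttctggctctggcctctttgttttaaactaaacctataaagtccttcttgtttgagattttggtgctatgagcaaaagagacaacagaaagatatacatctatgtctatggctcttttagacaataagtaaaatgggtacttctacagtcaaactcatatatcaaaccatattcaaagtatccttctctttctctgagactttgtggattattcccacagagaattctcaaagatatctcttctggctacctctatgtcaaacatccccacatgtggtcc
Gm36173 member: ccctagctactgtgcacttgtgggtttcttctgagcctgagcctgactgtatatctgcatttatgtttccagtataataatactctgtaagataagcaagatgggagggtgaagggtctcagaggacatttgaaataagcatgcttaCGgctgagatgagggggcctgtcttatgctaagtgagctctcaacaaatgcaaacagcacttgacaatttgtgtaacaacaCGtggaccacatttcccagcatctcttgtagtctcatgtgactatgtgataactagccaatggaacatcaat
D030025P21Rik independent region: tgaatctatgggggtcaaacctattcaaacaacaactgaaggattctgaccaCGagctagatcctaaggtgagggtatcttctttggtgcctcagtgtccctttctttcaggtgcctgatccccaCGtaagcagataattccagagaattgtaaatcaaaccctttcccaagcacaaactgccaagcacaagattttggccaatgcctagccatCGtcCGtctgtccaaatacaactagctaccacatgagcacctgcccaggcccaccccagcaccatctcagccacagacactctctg
The window near Mdfic held no CG and had a GC content of 35.7%. The typical member window held 2 CG at 43.3% GC, and the typical MLL3/4-independent window held 4 CG at 49% GC.

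The second set shows members beside pluripotency genes, again with CG in capitals. The member 15.5 kb upstream of the start of Pou5f1 (window chr17:35490331-35490630), which encodes the core pluripotency factor OCT4, is given first. It is followed by the member upstream of Sall4 (chr2:168786816-168787115), a zinc-finger partner of OCT4, and by an MLL3/4-independent region nearest the same gene (chr2:168768996-168769295).
Pou5f1 member: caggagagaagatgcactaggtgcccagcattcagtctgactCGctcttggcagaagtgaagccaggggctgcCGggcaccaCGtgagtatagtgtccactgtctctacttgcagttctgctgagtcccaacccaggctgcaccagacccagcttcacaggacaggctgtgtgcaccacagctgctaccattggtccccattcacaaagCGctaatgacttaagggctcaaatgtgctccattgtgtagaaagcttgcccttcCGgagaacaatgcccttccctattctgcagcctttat
Sall4 member: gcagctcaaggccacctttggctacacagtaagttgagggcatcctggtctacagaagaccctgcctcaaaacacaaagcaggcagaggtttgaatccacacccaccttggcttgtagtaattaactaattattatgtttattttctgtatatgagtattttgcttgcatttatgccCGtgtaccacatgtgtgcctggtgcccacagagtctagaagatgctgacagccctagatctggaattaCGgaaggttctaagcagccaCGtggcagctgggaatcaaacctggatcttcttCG
Sall4 independent region: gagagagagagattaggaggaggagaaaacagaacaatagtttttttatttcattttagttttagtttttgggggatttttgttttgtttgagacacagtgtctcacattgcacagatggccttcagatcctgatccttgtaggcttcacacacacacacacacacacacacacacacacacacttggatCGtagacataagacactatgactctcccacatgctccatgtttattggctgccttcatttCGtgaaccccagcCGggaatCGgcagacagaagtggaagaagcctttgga
The window of the Pou5f1 member held 5 CG at 54% GC, more than the typical MLL3/4-independent window. Between the Sall4 windows the number of CG did not differ, with 4 CG at 46.7% GC in the member and 4 CG at 43.7% GC in the independent region. Over its whole length the Sall4 member had 12.88 CpG per kb and lost H3K4me1 by a mean of -1.11 (log2) over the 4 mutant contrasts. The independent Sall4 region had 24.82 CpG per kb and a mean difference of -0.08.

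The third set shows the members near Naaladl2 (chr3:24822803-24823102) and Phldb2 (chr16:45814654-45814953), the most strongly reduced ones that hold the octamer of POU factors such as OCT4 outside repeat bases. Capitals mark the octamer, which reads ATTTGCAT on one strand and ATGCAAAT on the other.
Naaladl2 member: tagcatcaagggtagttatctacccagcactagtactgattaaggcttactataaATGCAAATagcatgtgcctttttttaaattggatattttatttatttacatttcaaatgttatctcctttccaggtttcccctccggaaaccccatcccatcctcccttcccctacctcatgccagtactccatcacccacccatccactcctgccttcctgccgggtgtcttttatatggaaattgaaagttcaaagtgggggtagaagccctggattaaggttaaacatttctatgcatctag
Phldb2 member: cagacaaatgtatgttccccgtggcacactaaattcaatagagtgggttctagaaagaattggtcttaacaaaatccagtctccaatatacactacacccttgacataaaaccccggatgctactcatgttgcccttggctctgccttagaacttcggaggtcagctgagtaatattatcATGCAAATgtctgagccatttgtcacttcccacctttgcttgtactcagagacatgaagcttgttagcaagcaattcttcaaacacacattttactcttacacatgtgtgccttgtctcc

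H3K4me1 at the members was low in both mutants in both states. The authors' pooled levels in formative cells had a median of 4.09 in DKO against 5.61 in the floxed line, and 4.16 in dCD against 5.63 in wild type. In naive cells the medians were 4.08 in DKO against 5.67 in the floxed line, and 4.17 in dCD against 5.56 in wild type. Converted back to normalized reads, the median member had 26.3 reads in formative DKO against 76.8 in the floxed line, and 26.8 in formative dCD against 77.2 in wild type. The numbers for naive cells were 25.7 in DKO against 79.7 in the floxed line, and 26.9 in dCD against 73.4 in wild type. A member thus kept a median of 35.3% of its control reads in formative DKO, 35.8% in formative dCD, 33.8% in naive DKO and 38.3% in naive dCD. No more than 178 of 1141 members, those in naive DKO, kept under 25% of the control reads. The IgG library was not analysed, so whether the kept reads were remaining mark or background was not tested. MLL3/4-independent regions, here the 8404 state-stable distal regions with all 4 differences under 0.5 in size, kept a median of 102.9% in formative DKO and 97.5% in naive DKO.

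**Figure D1:**
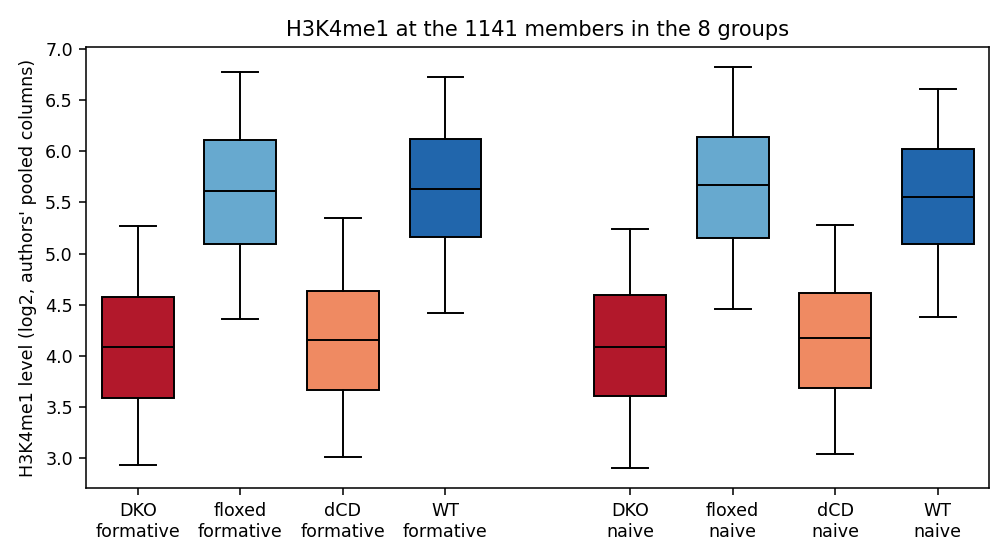
H3K4me1 level (log2, authors' pooled columns) of the 1141 members in each of the 8 groups. Boxes span the quartiles with the median as a line, and whiskers reach from the 5th to the 95th percentile over regions, not over libraries; medians are 4.08 to 4.17 in the mutant groups against 5.56 to 5.67 in the control groups, a gap that the rule for members required.

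The rule itself set these differences, so they describe how the members were chosen. Of all 186824 regions with levels, 16.7% were at least 1 lower in formative DKO, 20.1% in formative dCD, 15.9% in naive DKO and 13.9% in naive dCD, and 2.76% met all 4 conditions. Of the 33089 state-stable distal regions, 4134 met the formative DKO condition, 4595 the formative dCD condition, 4381 the naive DKO condition and 3093 the naive dCD condition. Any of the 4 was met by 7950, while just 1 region was at least 1 higher in all 4 contrasts. At the edge of the rule, regions near Slc16a9, Tnni3k and Robo2 stood just inside and regions near Slc25a46, Elmo1 and Dip2c just outside, all with a weakest effect that rounds to -1.

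Members varied in how much they lost. The difference had a median of -1.44 in formative DKO, with quartiles of -1.71 and -1.23, and of -1.42 in formative dCD, with quartiles of -1.66 and -1.22. In naive cells it had a median of -1.50 in DKO and -1.32 in dCD, and the lowest single value, -3.76, was in naive DKO. The dCD effect less the DKO effect had a median of 0.02 in formative cells and 0.16 in naive cells, and it was above 0 at 51.7% of members in formative and 68.6% in naive cells, against 40.4% in formative and 46.2% in naive cells over all regions. The rule selected on these effects, and each is set against its own control, of which the floxed line was a median of 0.13 higher than wild type at members in naive cells. Set against each other directly, DKO minus dCD levels had a median of -0.06 in formative and -0.04 in naive cells at members. For 937 members (82.1%) the effects of both mutants were within 0.5 of each other in formative cells, and for 887 (77.7%) in naive cells. Over all state-stable distal regions these shares were 77% in formative and 75.8% in naive cells, so members were close to them. Over all regions they were 63.4% and 62.4%. Across members the DKO and dCD effects had a Pearson r of 0.33 in formative and 0.27 in naive cells, compared with 0.77 in formative and 0.72 in naive cells over all state-stable distal regions. The thresholds of the rule narrow the range among members, and the regions within a group share its libraries and their depth.

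**Figure D2:**
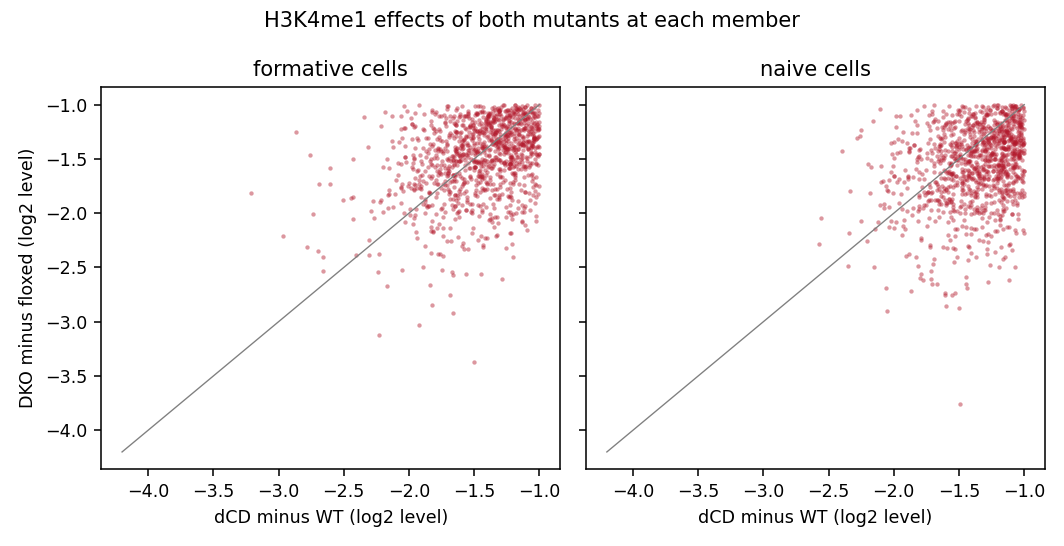
DKO minus floxed against dCD minus wild type (both log2 H3K4me1 level) at each of the 1141 members, in formative cells and in naive cells. Each point is 1 region and the line marks equal effects; both axes end at -1, where the rule stopped, and in naive cells the points lie lower than the line at 68.6% of members.

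Stability between states was required only in the controls, and in the mutants members did not exceed other state-stable distal regions in it. Formative minus naive was under 0.5 in size at 970 members (85%) in DKO and at 977 members (85.6%) in dCD, with medians of 0.00 in DKO and -0.01 in dCD. Over all state-stable distal regions this share was 91.2% in DKO and 86.2% in dCD, and over all 186824 regions 81.3% in DKO and 73.9% in dCD. The floxed line, which lacks MLL3, was close to wild type at the members, with a median difference of -0.02 in formative and 0.13 in naive cells. It was within 0.5 of wild type at 1068 members (93.6%) in formative and 1029 (90.2%) in naive cells. Over all state-stable distal regions these shares were similar, 89.8% in formative and 87.7% in naive cells. Over all regions they were 78% and 74%.

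The strongest losses lay next to genes of varied function. The member with the most negative weakest effect was an intergenic region upstream of Mdfic, a regulator of MyoD-family transcription factors (chr6:15715053-15717202). Its formative levels were 3.65 in DKO against 6.05 in the floxed line, and 3.63 in dCD against 6.28 in wild type. The naive levels were 4.00 in DKO against 6.26 in the floxed line, and 3.87 in dCD against 6.07 in wild type. With its controls this close, the rule required all 4 mutant columns of this region to lie under all 4 control columns. Its formative reads were 10.7 in DKO against 60.8 in the floxed line, and 10.6 in dCD against 71.4 in wild type.

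Next came regions near Vmn2r106, a pheromone receptor gene (chr17:20296312-20298862), with a mean effect of -2.43 and a weakest effect of -2.05, and near Gm13490 (chr2:51732961-51734212), with a weakest effect of -2.02. They were followed by Mup3, a major urinary protein gene (chr4:62096020-62099029, -1.95), Luzp2 (chr7:54768060-54769601, -1.94) and Dpp6, an auxiliary subunit of potassium channels (chr5:26795000-26796785, -1.93). Of the 10 strongest, 2 lay upstream of Slc6a15, a transporter of neutral amino acids (chr10:103344514-103348810, -1.86, and chr10:103323046-103324681, -1.82). The others were a region near Nol4 (weakest effect -1.82) and one with no named gene on chromosome 8 (weakest effect -1.82). None of the 10 was intronic. By the authors' deposited table, 8 of the 10 had an H3K27ac fold of -1 or lower in formative and 7 in naive DKO cells relative to wild type, against 27.8% of all regions in formative and 22.8% in naive cells.

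Members at the highest read concentration were wide regions. The widest was the 16650-bp member in an intron of Epha4, an ephrin receptor gene, which the table assigned to Mir6352 (chr1:77442699-77459348), with formative reads of 160.5 in DKO against 523.5 in the floxed line, and 178.5 in dCD against 555.8 in wild type. An intronic member of Btbd11 (chr10:85507402-85520202) had the highest concentration, 9.01, and 159.2 formative reads in DKO against 439.2 in the floxed line. The region near Gm38509 (chr3:34749214-34763172) was centred 105.8 kb downstream of the start of Sox2, in the stretch known as its distal control region in embryonic stem cells. That distance was looked up after the values were seen. Its levels were 2.47 in formative DKO against 3.66 in the floxed line and 2.48 in formative dCD against 3.76 in wild type, with naive levels of 2.55 in DKO against 3.75 in the floxed line and 2.38 in dCD against 3.57 in wild type. A second member lay 94.1 kb downstream of the same start (chr3:34743297-34745628, mean effect -1.33). The remaining 2 of the 5 were near Gm5089 (chr14:122414844-122425882, mean effect -1.38) and in Nwd1 (chr8:72674585-72684393, mean effect -1.28).

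The nearest gene of 6 members was a core pluripotency gene, out of 54 state-stable distal regions nearest a gene of that list, or 11.1%, compared with 3.45% for all state-stable distal regions. Among these were Pou5f1, Sall1, Sall4, Rif1 and Epcam, 1 member each. At the Pou5f1 member, formative levels were 5.47 in DKO against 6.70 in the floxed line and 5.56 in dCD against 6.87 in wild type. Its naive levels were 5.64 in DKO against 6.84 in the floxed line and 5.42 in dCD against 6.44 in wild type. That all 4 mutant columns lay under all 4 control columns followed from the rule and from how close the controls were. The strongest mean effect in this list was at Rif1, a telomere and replication-timing factor (chr2:52069012-52070121, -1.61), followed by Epcam, an epithelial adhesion molecule of embryonic stem cells (chr17:87556682-87561752, -1.42). Sall1, a relative of Sall4 (chr8:89078229-89080204), had a mean effect of -1.23. The lists were put together with earlier results of these data in view, and 6 regions is few.

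At the naive, formative and signalling lists the share was closer to the 3.45% of all state-stable distal regions. Naive pluripotency genes had 3 members of 66 state-stable distal regions (4.55%): Klf5, a Krüppel-like factor, 34.1 kb downstream of whose start the member lay (chr14:99330785-99334870, mean effect -1.63), Lifr, the receptor for LIF (chr15:7113527-7121807, -1.17), and Tdh, threonine dehydrogenase (chr14:63517205-63518792, -1.17). Formative and primed genes had 3 of 68 (4.41%). Of these Sox3, a SOX factor of the primed epiblast and neural progenitors, had the strongest loss among members near any listed gene (chrX:60867272-60869655, mean effect -2.05). Its formative levels were 3.43 in DKO against 5.80 in the floxed line and 3.76 in dCD against 5.59 in wild type. State-stable distal regions on X had a median mean effect of -0.63, against -0.39 on chromosome 14, the lowest autosome. Foxd3, a forkhead factor of the epiblast (chr4:99644323-99645839), and Igfbp3, which binds insulin-like growth factors (chr11:7280883-7286652), had mean effects of -1.47 and -1.31. Signalling genes had 6 of 147 (4.08%). Among them were Id2 (chr12:25109934-25111224, mean effect -2.01) and Id3 (chr4:136110285-136111806, -1.57), inhibitors of bHLH factors and targets of BMP, and Lefty2, an inhibitor of Nodal (chr1:180883115-180886570, -1.52). The others were Spry4 (chr18:38557978-38560799, -1.34) and Dusp6 (chr10:99292109-99294742, -1.25), feedback inhibitors of ERK signalling, and Fgfr1, an FGF receptor (chr8:25474919-25484065, -1.14).

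Of the lineage lists, trophoblast genes had 3 members of 28 regions (10.7%), against 3.45% of all state-stable distal regions, and all 3 were nearest 1 gene, Ascl2, a bHLH factor of the trophoblast. The remaining lists had 0 to 3 members each, at shares of 0 to 4%. Neural genes had 1 of 47 (Neurod1), primitive streak and mesoderm genes 1 of 40 (Gsc), germ line genes 1 of 25 (Prdm1) and coactivator and remodelling genes 3 of 89 (Jarid2 and Med13l). No member was nearest a gene of the lists for MLL3/4 complex subunits (0 of 24), housekeeping (0 of 29), endoderm (0 of 16) or fibroblasts and feeder cells (0 of 13).

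H3K27ac, a measure the rule did not use, was also lower at the members in DKO, and more so in naive cells. The authors' deposited table gives H3K27ac as a log2 fold of DKO over wild type, from samples outside these libraries and with 1 value per comparison, so the folds carry no error. In formative cells 359 of 1141 members (31.5%) had a fold of -1 or lower and 96 (8.41%) a fold of 1 or higher in the authors' deposited table, where 27.8% and 18.9% of all regions did. In naive cells 591 members (51.8%) were at -1 or lower and 60 (5.26%) at 1 or higher, against 22.8% and 24.7% of all regions of the authors' deposited table. The median fold of the authors' deposited table was -0.53 at members against 0.02 at MLL3/4-independent regions in formative cells, and -1.04 at members against 0.24 at MLL3/4-independent regions in naive cells. MLL3/4-independent regions stood at -1 or lower in 16.9% of cases in formative and in 11.5% in naive cells by the authors' deposited table. Without regions near a GENCODE start, the formative median at MLL3/4-independent regions was -0.12 in the authors' deposited table. The formative share of members at -1 or lower was thus close to that of all regions, while their share at 1 or higher was under that of all regions in both states. If the antibody of the protocol was used, the H3K4me1 and H3K27ac columns would not be separate measures, and this was not tested.

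**Figure D3:**
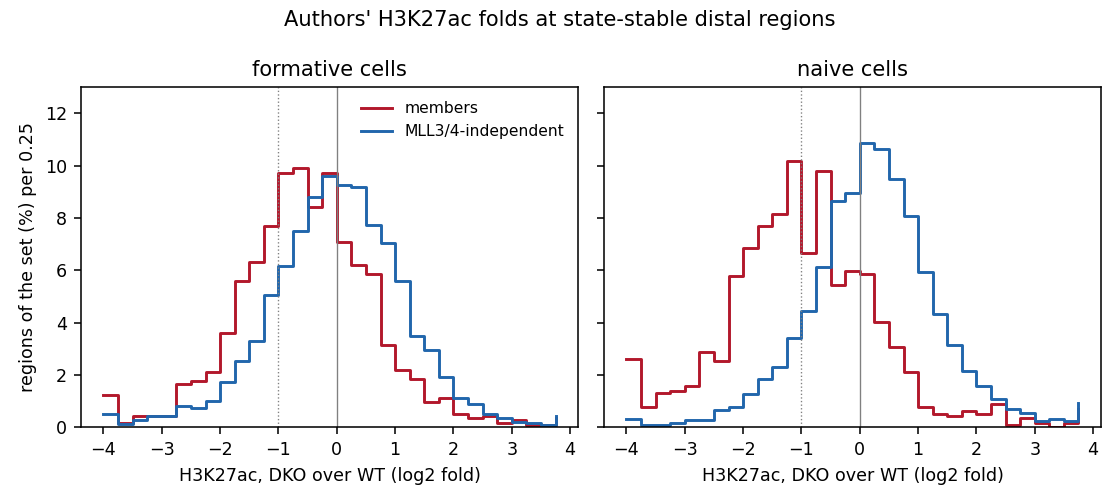
H3K27ac log2 fold of DKO over wild type in the authors' deposited table, as the percentage of regions per bin of 0.25, for the 1141 members and the 8404 MLL3/4-independent regions in formative cells and in naive cells. The end bins hold all values past -4 and 4 and the dotted line marks -1; the members' median is -0.53 in formative and -1.04 in naive cells, against 0.02 in formative and 0.24 in naive cells for the MLL3/4-independent regions.

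By the authors' deposited table, 207 members (18.1%) were at -1 or lower in both states, 152 in formative cells alone, 384 in naive cells alone and 398 in neither. Over all regions, by the authors' deposited table, the share was 8.76% in both states, 19% in formative cells alone, 14% in naive cells alone and 58.2% in neither, so that the share in formative cells alone was lower at members (13.3%). Loss of H3K4me1 at a member was thus not always accompanied by a 2-fold lower H3K27ac. The shares for MLL3/4-independent regions in the authors' deposited table were 3.55% in both states and 75.1% in neither. Over all state-stable distal regions the fold followed the size of the H3K4me1 effect. Where the mean of the 4 effects was -1.75 or lower, the authors' deposited table had a median H3K27ac fold of -0.67 in formative and -1.49 in naive cells. Where it lay between -0.25 and 0, the medians from the authors' deposited table were -0.08 in formative and 0.13 in naive cells. DKO was compared with wild type for H3K27ac but with the floxed line for H3K4me1, so the loss of MLL3, which the floxed line shares with DKO, enters the H3K27ac fold and not the H3K4me1 difference.

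Within wild type, H3K27ac, whose stability the rule did not require, was lower in formative than in naive cells at part of the members. The authors' deposited table had 380 members (33.3%) with an H3K27ac fold of -1 or lower for formative over naive wild type and 143 (12.5%) with 1 or higher, against 18.8% and 33% of all regions. The median of this fold in the authors' deposited table was -0.45 at members against 0.33 at MLL3/4-independent regions. In DKO cells the median of formative over naive in the authors' deposited table was -0.02 at members and 0.05 at MLL3/4-independent regions. Another fold column for formative over naive wild type, headed AT, whose abbreviation the labels do not define, was -1 or lower at 386 members (33.8%) and 1 or higher at 51 (4.47%) in the authors' deposited table, where 17% and 14.3% of all regions were. Its median in the authors' deposited table was -0.54 at members against 0.04 at MLL3/4-independent regions.

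At several named loci the DKO fold differed between states. At the Pou5f1 member the authors' deposited table had an H3K27ac fold of DKO over wild type of 0.16 in formative and -2.30 in naive cells, and a fold of -3.14 for formative over naive wild type. The Foxd3 member had 0.63 in formative and -2.95 in naive cells in the authors' deposited table, and the Lifr member 0.39 in formative and -1.94 in naive cells. At the wide Epha4 member the authors' deposited table gave 0.73 in formative and -2.45 in naive cells, and at the member downstream of Sox2 -0.31 in formative and -1.86 in naive cells. Lefty2 was lower in both, with -1.83 in formative and -1.82 in naive cells in the authors' deposited table. The Sox3 member differed, with -1.76 in formative and -0.27 in naive cells by the authors' deposited table. For formative over naive wild type, the authors' deposited table had -2.36 at Foxd3, -3.27 at Lifr and -3.69 at the Epha4 member. It had -2.89 at the member downstream of Sox2, 0.03 at Lefty2 and 0.46 at Sox3. Where this fold was negative, as at Pou5f1, the formative DKO fold was set against a lower wild-type level. Among the 18 members nearest a naive, core, formative or signalling gene, the authors' deposited table had 2 at -1 or lower in formative cells and 7 in naive cells. The formative count is a smaller share than the 31.5% of all members and the 27.8% of all regions of the authors' deposited table, while in naive cells 51.8% of all members and 22.8% of all regions were that low.

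The extreme H3K27ac folds belonged to narrow members. The lowest naive values in the authors' deposited table were -6.78 near Fgd1, -6.24 near Ino80 and -6.16 near Trim26, and the lowest formative values were -7.56 near Ino80, -5.90 near Gse1 and -5.60 near Gm37065. Among the highest, the authors' deposited table had naive folds of 6.46 in Faf1, 5.51 near Cetn3 and 5.15 near 1110015O18Rik, and formative folds of 5.86 in Adamts3 and 4.74 in Wls. These members were 911 to 2268 bp long, and the H3K27ac levels behind the folds were not used here. Folds over 4 in size in either state were found at 43 members (3.77%) in the authors' deposited table, against 2.53% of all state-stable distal regions and 11.5% of all regions.

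RNA of the nearest genes differed less. The authors' deposited table gave an RNA fold of DKO over wild type for 409 of the 975 genes nearest a member. In formative cells 40 of these genes (9.78%) were at -1 or lower and 34 (8.31%) at 1 or higher in the authors' deposited table, against 5.65% and 6.99% of all 10876 genes with a value. Naive cells had 88 genes (21.5%) at -1 or lower and 21 (5.13%) at 1 or higher, where the authors' deposited table had 11.7% and 9.63% of all genes. Genes nearest an MLL3/4-independent region were at -1 or lower in 4.97% of cases in formative and 11.9% in naive cells by the authors' deposited table. The median fold in the authors' deposited table was 0.05 in formative and -0.19 in naive cells for the members' genes. Genes beside a member whose naive H3K27ac fold was -1 or lower were themselves at -1 or lower in 26.8% of 224 cases in naive cells, against 17.3% of 208 genes beside other members, by the authors' deposited table. A gene with members of both kinds counts in both groups. A nearest gene need not be the target of a region.

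The lowest RNA folds in naive cells in the authors' deposited table were -4.83 for Wdr20rt, -4.27 for Lix1 and -3.84 for Morc1, a germ-line repressor of transposons, and the lowest in formative cells -3.31 for Ppp4r4, -3.23 for Usp17lc and -2.58 for Arhgef3. At the other end the authors' deposited table had naive folds of 4.02 for Dsc2, a desmosomal cadherin, 3.37 for Mmd2 and 2.85 for Wls, which carries WNT proteins to the cell surface. Among the highest formative folds in the authors' deposited table was 3.49 for Meis1, a homeobox factor. Pou5f1 RNA had a fold of -0.20 in formative and -0.76 in naive cells, and Sox3 RNA of -2.33 in formative and -1.91 in naive cells, in the authors' deposited table. Lefty2 RNA was at -0.15 in formative and 2.70 in naive cells in the authors' deposited table, although H3K4me1 and H3K27ac at its member were lower in both states.

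Members stood farther from genes than other stable regions and were narrower. Of the 1141 members, 448 (39.3%) were intronic and 693 intergenic, while 57% of MLL3/4-independent regions were intronic. Their median distance to the nearest start was 27371 bp against 12383 bp for MLL3/4-independent regions, and their median length 2780 bp against 3642 bp. Fewer contained an annotated transcript start: 69 members (6.05%) held a GENCODE start and 111 (9.73%) had one within 1 kb, against 30.2% and 38.8% of MLL3/4-independent regions. Those 111 are distal by the table's annotation only. Because the added constant in the levels shrinks differences in wide regions, length and effect are linked by construction. The H3K27ac medians of members in the authors' deposited table lay between -0.65 and -0.32 in formative cells and between -1.27 and -0.78 in naive cells over 5 bins of length.

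The X chromosome held 35 members among 272 state-stable distal regions (12.9%), and chromosome 14 held 58 of 1231 (4.71%). The mean over the 4 contrasts of the median difference of all regions was -0.53 on X and -0.37 on chromosome 14, and from -0.32 to -0.14 on the other autosomes. The part of these chromosome-wide shifts in the number of members was not tested. Without chromosomes 8, 14, 17 and X, 928 members were left.

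The members were poorer in GC and CpG than other stable distal regions. Their median GC content was 43.3% against 48.5% in MLL3/4-independent regions and 47.2% in all state-stable distal regions. CpG density had a median of 6.83 per kb in members against 15.5 per kb in MLL3/4-independent regions, with the members' highest value at 19.4 per kb. Among regions of at most 42% GC, 12.4% were members, and this share was 5.49%, 2.75%, 1.24% and 0.112% in the following classes of rising GC. Repeat bases made up a median of 26.3% of members against 18.7% of MLL3/4-independent regions, and 114 members (9.99%) had over 50%. Within the 42 to 45% GC class the median H3K27ac fold of the authors' deposited table was -0.51 at members against 0.37 at MLL3/4-independent regions in formative cells, and -1.07 at members against 0.24 at MLL3/4-independent regions in naive cells. The part of base composition in the H3K4me1 differences was not tested.

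**Figure D4:**
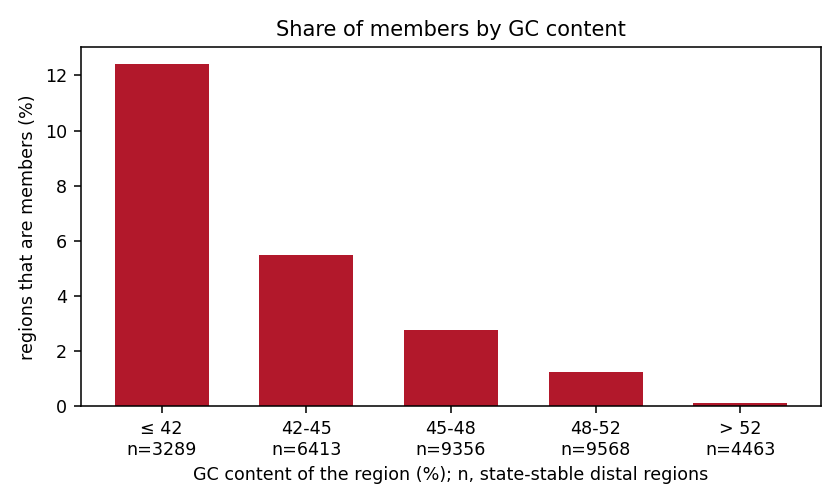
Share of state-stable distal regions that are members (percent, y axis, from 0) in 5 classes of GC content (x axis), with the number of regions in each class. The share is 12.4% in regions of at most 42% GC and 0.112% in those over 52%.

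Motif letters were searched on both strands in the central 300 bases, for 15 motifs. The POU octamer ATTTGCAT was found in 3.77% of members against 1.67% of MLL3/4-independent regions and 1.97% of all state-stable distal regions. With repeat bases left out, the shares were 2.72% of members against 1.3% of MLL3/4-independent regions, and, within 42 to 48% GC as well, 2.13% of members against 1.49% of MLL3/4-independent regions. The SOX core repeat CATTGTT was found in 6.4% of members against 3.53% of MLL3/4-independent regions, and within 42 to 48% GC outside repeats in 4.43% of members against 3.92% of MLL3/4-independent regions. The ESRRB letters TCAAGGTCA were found in 1.67% of members against 0.916% of MLL3/4-independent regions, but in 0.701% of members against 0.476% of MLL3/4-independent regions once repeat bases were left out. The OTX2 letters GGATTA were found in 13.8% of members against 10.9% of MLL3/4-independent regions, and within 42 to 48% GC outside repeats in 10.7% of members against 7.37% of MLL3/4-independent regions. GC-rich letters were less frequent in members over all GC contents: the CTCF core AGGNGGC was in 14.1% of members against 21.1% of MLL3/4-independent regions, the E-box CACGTG in 3.42% of members against 5.49% of MLL3/4-independent regions and the ETS letters CCGGAAG in 1.31% of members against 1.99% of MLL3/4-independent regions. Within 42 to 48% GC these differences were smaller, with the CTCF core in 16.1% of members against 16.8% of MLL3/4-independent regions. The E-box was in 4.43% of members against 5.44% of MLL3/4-independent regions, and the ETS letters were in 1.81% of both. With repeat bases left out as well, the CTCF core was in 11.3% of members against 13% of MLL3/4-independent regions. The E-box was then in 3.45% of members against 4.63%, and the ETS letters in 1.31% of members against 1.69%. The STAT3 letters TTCCNGGAA were in 1.05% of members and 1.05% of MLL3/4-independent regions. The KLF letters GGGNGTGG were less frequent, in 10.6% of members against 12.6% of MLL3/4-independent regions. Higher shares were not limited to pluripotency factors. The TEAD letters GGAATG were in 20.5% of members against 15.8%, AP-1 in 10.8% against 8.65% and TCF/LEF in 8.59% against 6.83%. Within 42 to 48% GC outside repeats, TEAD was at 13.1% against 13%, AP-1 at 6.73% against 7.78% and TCF/LEF at 7.55% against 6.36%. These are matches of letters only, most members held none of the octamer, SOX or ESRRB letters, and the shares changed with the GC range and with repeats.

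Members were not isolated: other regions close by had lower H3K4me1 in the mutants too. Regions that were not members but lay within 2.5 kb of one had a median mean effect of -1.09 over 206 regions. This was -0.82 at 2.5 to 5 kb, -0.62 at 5 to 10 kb, -0.49 at 10 to 25 kb, -0.37 at 25 to 50 kb and -0.32 at 50 to 100 kb. Around MLL3/4-independent regions, leaving out regions of that class, the medians lay between -0.21 and -0.17 at every distance. The neighbours come from the same libraries and so share their scaling. Whether close regions are separate elements or parts of 1 domain was not tested. H3K27ac followed mainly in naive cells, with a median fold in the authors' deposited table of -0.91 within 2.5 kb of a member and -0.03 at 50 to 100 kb. In formative cells the authors' deposited table had -0.38 and -0.22 at these distances. Within 2.5 kb of an MLL3/4-independent region its medians were -0.20 in formative and 0.23 in naive cells.

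**Figure D5:**
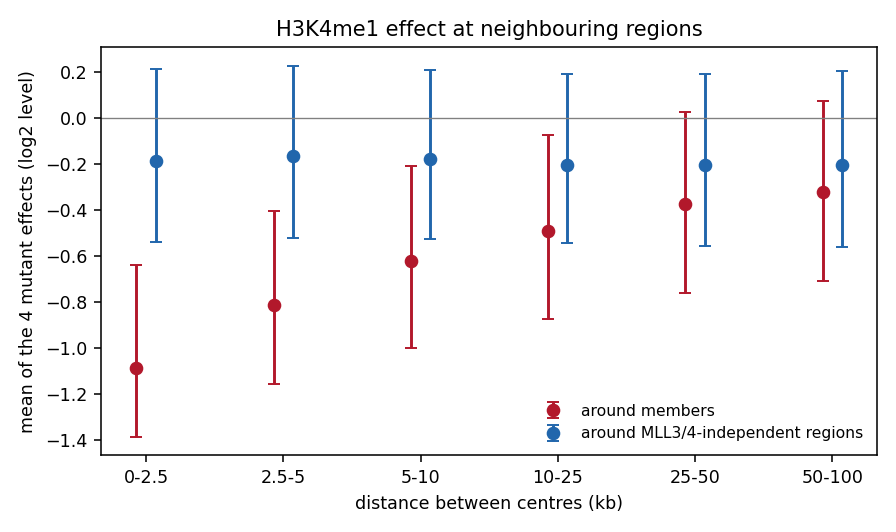
Mean of the 4 mutant H3K4me1 effects (log2) at regions near a member, members left out, and at regions near an MLL3/4-independent region, that class left out, by distance between centres in kb. Points are medians over regions and bars span the quartiles; around members the median is -1.09 within 2.5 kb and -0.32 at 50 to 100 kb, and around MLL3/4-independent regions it stays between -0.21 and -0.17.

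Some members formed runs. Within 25 kb of another member were 220 (19.3%), and most nearest genes, 851 of 975, had just 1 member. Members of a run could nearly touch, as did chr10:103342381-103344512 and chr10:103344514-103348810 near Slc6a15. A run is therefore not a count of separate enhancers. The longest run had 5 members upstream of Smarcad1, a chromatin remodeller, within chr6:65001217-65030171, from 40.0 to 15.4 kb before its start. Their mean effects were -1.55, -1.19, -1.50, -1.47 and -1.66 in order along the chromosome. In the authors' deposited table their naive H3K27ac folds were -4.13, -2.69, -4.27, -4.42 and -3.58, and their formative folds ran between -1.89 and -0.87. Smarcad1 RNA had a fold of 0.38 in formative and -0.55 in naive cells in the authors' deposited table.

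Runs of 4 members lay upstream of Slc6a15 (chr10:103323046-103351618, median mean effect -2.04), near Syndig1, a synapse protein gene (chr2:149866879-149907907, -1.60), and near Kifc3, a kinesin gene (chr8:95167428-95180416, -1.31). Slc6a15 RNA had a fold of -0.59 in formative and -2.90 in naive cells in the authors' deposited table. Dpp6, Kcnip2 and Plekhf2 also had 4 members each, and Asns, Mir28b and Rab1a 3 each. For Dpp6 the members were spread over 300955 bp, and its RNA fold in the authors' deposited table was -0.90 in formative and -2.02 in naive cells. At Kifc3 the 4 members filled a stretch of 12989 bp, with median H3K27ac folds in the authors' deposited table of -0.68 in formative and -2.04 in naive cells. Over the 4 Plekhf2 members the authors' deposited table had median H3K27ac folds of -0.75 in formative and -0.30 in naive cells. At the Ascl2 run of 3 members (chr7:142937802-142958146) it had -0.22 in formative and 0.04 in naive cells. Not every run with lower H3K4me1 thus had lower H3K27ac in naive cells.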

How the data were processed

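The deposited table covers 16 H3K4me1 libraries, 2 for each of 8 groups, as 1 pooled level per group and region. Per the file headers and from the values, the authors' levels are log2 values with 1 added before the log; at a given read number they fell with log2 width at a slope of -2, with an offset of 22.25. Levels were therefore compared only within a region, converted back to normalized reads to show depth, and the planned replicate statistics could not be fitted. Median normalized reads per region over the whole table were 29.6 to 31.7 in the mutant groups and 35.0 to 39.3 in the control groups. Per the submitters' processing notes, Trim Galore, Bowtie2, SEACR, DiffBind and deepTools were used with build mm10; their versions and the scaling between groups are not stated there. Columns labelled CKO were read as the floxed line, from the sample descriptions. The deposited log2 folds for H3K27ac, AT and RNA, and the p-value based FDR of the authors' wild-type comparison, were copied as the authors gave them. Another 14 level columns were not used, and the MLL4 and IgG libraries were not analysed here.

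The members, gene lists, motifs and comparisons were chosen with earlier results of these data known. Regions were called at a difference or fold of 1 in size (log2, a ratio of 2). Sequences were read with pysam 0.24.0 from RefSeq GRCm38, transcript starts from GENCODE on the same build, and coordinates were taken as 1-based; no region passed a chromosome end. Computation used Python 3.11.15 with pandas 2.3.3, numpy 2.4.6 and scipy 1.17.1. Named regions were the 10 members with the most negative weakest effect, the 10 nearest genes with the most members, all 18 members nearest a naive, core, formative or signalling gene, the 3 lowest and 3 highest H3K27ac and RNA folds per state, 3 regions each side of the threshold and the 5 highest read concentrations; others are said to have been chosen later, and a few of the regions and genes so named are not reported here. Scaling, thresholds, chromosomes, motif windows and, added after seeing the data, the centre of the H3K27ac folds, transcript starts, GC content, repeats and the match of both control lines were varied.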

Additional observations from a re-analysis of the deposited data

How the results depend on the processing

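The number of members depended on the settings of the rule and on the scaling. It was 271 with each group centred on its median over all regions and 282 with quantile scaling of the 8 groups, against 1141 with the levels as deposited. The medians of all regions were -0.13 and -0.29 in formative DKO and dCD and -0.18 and -0.29 in naive DKO and dCD, which centring removes; what lowered the number under quantile scaling was not tested. Of the 271 centred members, 267 were also among the 1141. A mutant threshold of -0.8 gave 2386 and of -1.2 gave 459, a state limit of 0.3 gave 548, and a concentration minimum of 6 gave 680. The other 7 settings, among them back-converted reads with 1224 members, stayed within 1.5 times of 1141.

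The share of members at an H3K27ac fold of -1 or lower in the authors' deposited table was, in naive cells, 60.1% for centred, 59.9% for quantile-scaled, 45.5% for -0.8 and 55.6% for -1.2 members, with medians of -1.27, -1.31, -0.85 and -1.18. In formative cells it was 35.4% for centred and 37.2% for quantile-scaled members (median -0.67 for quantile-scaled members). With each fold centred on its median over all regions, a step added after seeing the data, the formative share was 25.4% and the median -0.33 in the authors' deposited table, against 13% and 0.22 at MLL3/4-independent regions. Leaving out regions near a GENCODE start, regions rich in repeats, regions outside 42 to 48% GC or regions where the floxed line and wild type differed moved none of the members' 4 values (share and median in each state) out of its 95% interval over regions. At MLL3/4-independent regions, leaving out those near a GENCODE start turned the formative median to -0.12, against 0.02 over all of them, and raised the share at -1 or lower to 21.4%, against 16.9%, in the authors' deposited table; the cause was not tested. For the RNA folds of the authors' deposited table, the formative share at -1 or lower was 13.1% for quantile-scaled members. The members' median GC content was 42.2%, 42.1%, 43.9% and 42.7% for centred, quantile-scaled, -0.8 and -1.2 members, their CpG density 5.65, 5.89, 7.77 and 6.06 per kb, and their length 2572, 2173, 2983.5 and 2582 bp (2931 bp for members from back-converted reads). None of the members' values changed direction under the settings run.

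No paired analysis was possible because each group is a single pooled column that carries no replicate number, and leaving out libraries could not be run for the same reason. Variation between cultures is therefore unknown, and a difference between lines cannot be told apart from one between single cultures or clones.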
